A study of Mus musculus with 18 samples.

Results

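The genes described here are *Dpep1*, a membrane dipeptidase, and 8 genes of the pathway that makes and senses leukotrienes, *Dpep2*, *Alox5*, *Alox5ap*, *Ltc4s*, *Lta4h*, *Ggt5*, *Ltb4r1* and *Cysltr1*. They were taken from the RNA-Seq count table by gene symbol, and these 9 symbols matched 10 of its 55573 gene IDs, since *Dpep2* has 2 IDs. *Dpep1* was chosen because it was higher in males than in females in earlier results on these samples. Its level in males and females is therefore given as a description, without a test. The other 8 were chosen by their place in the pathway. RNA came from the spinal dorsal horn (DHSC) on the injected side of adult C57BL/6J mice, dissected 2 h after 2% formalin was given into a hindpaw. The groups held 6 samples each, of males, of F1/proestrus and of F2/metestrus. F1 and F2 are the behaviors with a short and a long pause between the pain phases, and the cycle stage was read from vaginal smears after the behavioral test, so that behavior and stage cannot be told apart in these groups. Every mouse received formalin, and no uninjected animal or contralateral tissue is analysed here.

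Leukotrienes are lipid mediators made from arachidonate, mainly by myeloid cells. 5-lipoxygenase (*Alox5*), helped by its activating protein (*Alox5ap*), makes the unstable epoxide LTA4. Leukotriene A4 hydrolase (*Lta4h*) turns it into LTB4, a chemoattractant of neutrophils, whereas LTC4 synthase (*Ltc4s*) joins it to glutathione. Gamma-glutamyltransferase 5 (*Ggt5*) then trims LTC4 to LTD4, and membrane dipeptidases (*Dpep1*, *Dpep2*) trim LTD4 to LTE4. LTB4 is sensed by the receptor encoded by *Ltb4r1*, and the cysteinyl leukotrienes by that encoded by *Cysltr1*. *Dpep1* is best known from the brush border of the kidney, and it is also known as an adhesion receptor for neutrophils on blood vessels of lung and liver.

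Total counts ranged from 73590509 to 125724156 per sample, at which a floor of 3 counts was worth 0.0240 to 0.0407 CPM (counts scaled to a common library size after TMM normalization). This floor covers counting error only. All 10 IDs passed the filter on low counts in both comparisons. By their library numbers the samples fall into 2 series, the first numbered 27 to 35 and the second 188 to 196. Each group has 3 samples in either series, and values within each series are given where they bear on a result. No source says what the series stand for. In bulk tissue, fewer cells of a type and less RNA per cell cannot be told apart.

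In GRCm38, *Dpep1* occupies chromosome 8 from 123186242 to 123201812 on the plus strand, and none of its 2486 exonic bases is shared with another gene. Its promoter is shown because *Dpep1* is the gene that was chosen for its difference between the sexes, and that of *Alox5* because 5-lipoxygenase opens the pathway. Both are the 250 bases before the start site in the RefSeq annotation of GRCm38.p6. The set of promoters used here held 5 of the 9 genes. The *Dpep1* stretch is chr8:123185985-123186234 on the plus strand and the *Alox5* stretch is chr6:116461179-116461428 on the minus strand. Capitals mark matches to any of 5 motifs searched on both strands, namely TATAAA, known as a core promoter box, and the box CCAAT, then GGGCGG, which Sp1 proteins recognize, then GGTCA, which is part of the element of the estrogen receptor, and lastly AGAACA, which is part of the element of the androgen and glucocorticoid receptors.
Dpep1: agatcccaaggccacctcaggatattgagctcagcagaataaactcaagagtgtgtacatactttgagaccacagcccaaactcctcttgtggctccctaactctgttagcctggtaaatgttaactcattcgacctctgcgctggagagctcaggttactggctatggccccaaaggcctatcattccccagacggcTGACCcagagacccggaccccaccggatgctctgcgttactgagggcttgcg
Alox5: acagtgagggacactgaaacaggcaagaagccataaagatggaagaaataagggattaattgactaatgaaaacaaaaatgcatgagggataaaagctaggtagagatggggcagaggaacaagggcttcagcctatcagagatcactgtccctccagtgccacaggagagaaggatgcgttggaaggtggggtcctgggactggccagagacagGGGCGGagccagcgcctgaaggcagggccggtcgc
In *Dpep1* the only match was GGTCA on the opposite strand, read as TGACC and beginning 52 bases before the start site. GGTCA was found in 35.2% of 32851 promoter stretches of this length. In *Alox5* the only match was GGGCGG, 35 bases before the start site, a motif found in 32.7% of promoters. AGAACA was in neither stretch and in 16.1% of all. These matches describe the letters in the window and say nothing of binding.

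The mean of *Dpep1* was highest in males, lower in F1/proestrus and lowest in F2/metestrus. In males 1 to 6 its level was 2.00, 2.04, 3.23, 3.66, 3.52 and 2.18 CPM, a mean of 2.77 ± 0.780 CPM (SD, n = 6). F1/proestrus females 1 to 6 had 1.78, 1.51, 0.998, 1.497, 1.09 and 1.44 CPM, a mean of 1.39 ± 0.291 CPM (SD, n = 6). F2/metestrus females 1 to 6 had 0.917, 1.34, 0.672, 0.858, 0.875 and 0.468 CPM, a mean of 0.854 ± 0.289 CPM (SD, n = 6). The lowest male lay above the highest female, so that males did not overlap with either female group, whereas both female groups overlapped. These levels rest on 225 to 358 counts per male, 97 to 195 per F1/proestrus female and 47 to 139 per F2/metestrus female.

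Between the sexes, the edgeR fit of all 18 samples gave *Dpep1* a log2 fold change of 1.30 (SE 0.216), or 2.46-fold higher in males. The SE is that of the fitted log2 fold change and takes no account of the choice of the gene. Against F1/proestrus alone it was 0.98, and against F2/metestrus alone 1.68. In the first library series males had 2.42 ± 0.698 CPM (SD, n = 3) against 1.20 ± 0.411 CPM (SD, n = 6) in females, and in the second series 3.12 ± 0.816 CPM (SD, n = 3) against 1.04 ± 0.390 CPM (SD, n = 6). The log2 fold change was 0.99 in the first series and 1.59 in the second. That males stood above all females of their own series follows from the separation over all 18 samples. Of 24862 genes tested between the sexes, 49 (0.197%) passed an FDR of 5%, and the groups did not overlap, with males higher, for 18 genes (0.0724%). *Dpep1* is in both counts, but because this contrast chose the gene, that is no test of it and nothing is read from it.

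The comparison of the female groups was not used to choose *Dpep1* and was tested. F2/metestrus lay 1.62-fold below F1/proestrus, with a log2 fold change of -0.70 (SE 0.218, 95% interval -1.16 to -0.23). All 6 F2/metestrus samples were below the median of F1/proestrus, and 5 of 6 were below its lowest sample. The unadjusted p was 0.00595 with edgeR's quasi-likelihood test, and a two-sided exact permutation test of log2 CPM over 924 splits gave 0.0130, where 0.00216 is the smallest p possible. After Benjamini-Hochberg adjustment over the 24042 genes tested in edgeR the p was 1, so that the difference did not pass the threshold. In this comparison 0 genes (0%) passed an FDR of 5%, 596 (2.48%) had an unadjusted p under 0.05, and DESeq2 called 2 genes. Within the library series the log2 fold change was -0.56 in the first and -0.87 in the second.

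**Figure D1:**
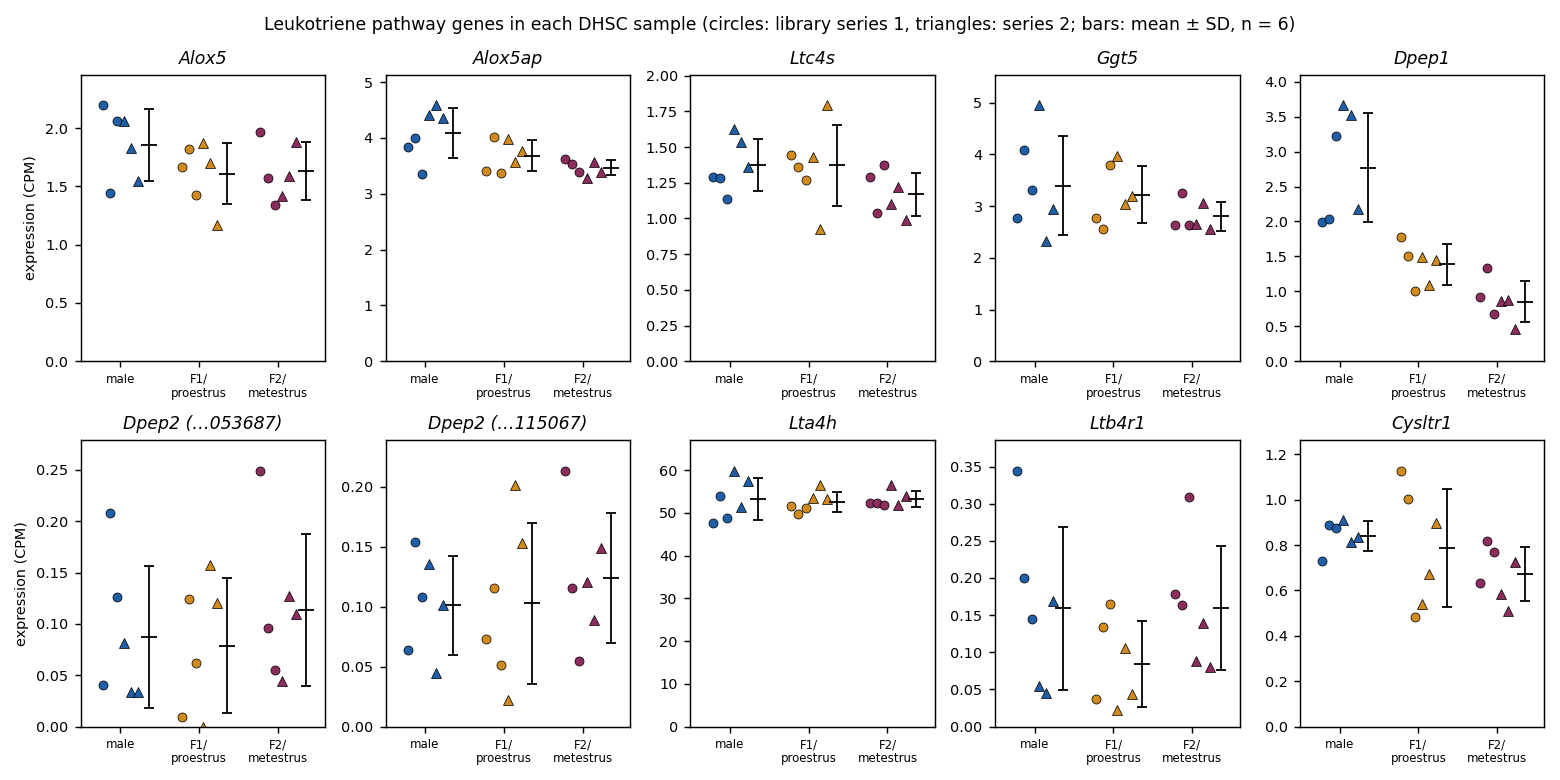
Expression of the 9 genes (10 IDs, with the last digits of both *Dpep2* IDs) in CPM on the vertical axis for each of 18 samples, by group. Circles are samples of the first library series and triangles of the second, and bars show the mean ± SD of 6 samples. For *Dpep1* all 6 males lie above the females. For the other genes the groups overlap.

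For the step that makes LTA4, both *Alox5* and *Alox5ap* had slightly higher means in males and did not pass the test. *Alox5*, on the minus strand of chromosome 6 from 116410077 to 116461178, ranged from 1.44 to 2.20 CPM in males (median 1.94), from 1.17 to 1.87 CPM in F1/proestrus (median 1.68) and from 1.34 to 1.97 CPM in F2/metestrus (median 1.58). The groups overlapped, although 3 males lay above the highest female. Males exceeded females by a log2 value of 0.19 (SE 0.117, 95% interval -0.05 to 0.44), with an adjusted p of 0.589 in edgeR. *Alox5ap*, on the plus strand of chromosome 5 from 149264767 to 149288153, had 3.84, 4.00, 3.36, 4.41, 4.59 and 4.35 CPM in males 1 to 6. In F1/proestrus it ranged from 3.37 to 4.01 CPM (median 3.67) and in F2/metestrus from 3.28 to 3.62 CPM (median 3.46). Males 4 to 6 stood above every female and males 1 to 3 lay within the female range. Its log2 fold change was 0.19 (SE 0.0720, 95% interval 0.04 to 0.34), and edgeR gave an unadjusted p of 0.0139 that became 0.382 after adjustment. Of its exonic bases 13.3% are shared with *Gm19719* on the opposite strand, and the sources do not say whether reads were counted by strand.

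Within the library series, *Alox5ap* had the following values. In the first, males had 3.73 ± 0.331 CPM (SD, n = 3), F1/proestrus 3.597 ± 0.361 CPM (SD, n = 3) and F2/metestrus 3.52 ± 0.115 CPM (SD, n = 3). In the second series the corresponding values were 4.45 ± 0.121, 3.77 ± 0.201 and 3.42 ± 0.151 CPM (SD, n = 3 each), and there the 3 males lay above the 6 females. The log2 fold change between the sexes was 0.05 in the first series and 0.31 in the second. The difference between the series was not tested. Between the female groups *Alox5* had a log2 fold change of 0.02 (95% interval -0.28 to 0.31) and *Alox5ap* one of -0.09 (95% interval -0.26 to 0.08), with adjusted p of 1 for both in edgeR.

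On the branch to cysteinyl leukotrienes, *Ltc4s* and *Ggt5* had ranges that overlapped between the 3 groups. *Ltc4s*, on the minus strand of chromosome 11 from 50236461 to 50238616, ranged from 1.14 to 1.63 CPM in males (median 1.33), from 0.928 to 1.79 CPM in F1/proestrus (median 1.40) and from 0.986 to 1.38 CPM in F2/metestrus (median 1.16). Its log2 fold change was 0.11 between the sexes (95% interval -0.15 to 0.37, adjusted p 0.790 in edgeR), and 0.052 without male 4. For the female groups it was -0.23 (95% interval -0.55 to 0.09, adjusted p 1 in edgeR). Of its exonic bases 26.4% are shared with *Gm26542* on the opposite strand. *Ggt5*, on the plus strand of chromosome 10 from 75589340 to 75617200, ranged from 2.33 to 4.95 CPM in males (median 3.13), from 2.56 to 3.96 CPM in F1/proestrus (median 3.12) and from 2.55 to 3.25 CPM in F2/metestrus (median 2.65). Males held both the lowest and the highest *Ggt5* level of the 18 samples. Its log2 fold change was 0.17 between the sexes (95% interval -0.11 to 0.45, adjusted p 0.686 in edgeR), 0.0295 without male 4, which had the highest level, and -0.20 between the female groups (95% interval -0.45 to 0.05, adjusted p 1).

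*Dpep2*, the other dipeptidase of the family that acts on LTD4, was close to the floor in many samples. Its IDs overlap on the minus strand of chromosome 8. ENSMUSG00000053687 spans 105984944 to 105991759 and ENSMUSG00000115067 spans 105984945 to 105996423. Of their exonic bases 44.0% and 97.2% are shared with other genes, including each other. The sources do not say whether reads on shared bases were split or dropped. The low counts therefore need not mean low expression. ENSMUSG00000053687 had 0 to 28 counts per sample, and its level ranged from 0.0334 to 0.208 CPM in males (median 0.0607), from 0 to 0.158 CPM in F1/proestrus (median 0.0910) and from 0.0440 to 0.249 CPM in F2/metestrus (median 0.103). ENSMUSG00000115067 had 2 to 24 counts per sample, with medians of 0.105, 0.0942 and 0.118 CPM in males, F1/proestrus and F2/metestrus. Neither ID separated the groups. The log2 fold changes between the sexes were -0.15 (95% interval -1.28 to 0.98, adjusted p 0.941 in edgeR) and -0.18 (95% interval -0.96 to 0.60, adjusted p 0.893). In females the F2/metestrus minus F1/proestrus values were 0.52 (95% interval -0.80 to 1.84) and 0.27 (95% interval -0.69 to 1.22), with adjusted p of 1. Without 1 sample they ran from 0.103 to 0.845 and from 0.0348 to 0.583. A level 2-fold lower in males lies within the interval of ENSMUSG00000053687.

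*Lta4h*, which opens the branch to LTB4, was the most abundant of these genes and had the smallest coefficient of variation of the 10 IDs over the 18 samples (5.85%). It lies on the plus strand of chromosome 10 from 93453411 to 93484875, and ranged from 47.7 to 59.9 CPM in males (median 52.7), from 49.7 to 56.5 CPM in F1/proestrus (median 52.5) and from 51.8 to 56.6 CPM in F2/metestrus (median 52.3). Its log2 fold change was 0.01 between the sexes (95% interval -0.09 to 0.11, adjusted p 0.960 in edgeR) and 0.01 between the female groups (95% interval -0.09 to 0.11, adjusted p 1). In each group the mean was higher in the second library series, with 56.3 against 50.2 CPM in males, 54.4 against 50.9 CPM in F1/proestrus and 54.2 against 52.2 CPM in F2/metestrus.

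Of the receptors, *Ltb4r1* was near the floor and *Cysltr1* below 1.13 CPM. *Ltb4r1*, on the plus strand of chromosome 14 from 55765962 to 55768494, had 0.345, 0.199, 0.144, 0.0543, 0.0445 and 0.168 CPM in males 1 to 6. F1/proestrus females 1 to 6 had 0.0364, 0.133, 0.165, 0.0220, 0.105 and 0.0437 CPM, and F2/metestrus females 0.178, 0.163, 0.309, 0.0880, 0.140 and 0.0797 CPM. None of the 6 F2/metestrus samples was below the F1/proestrus median, and the ranges overlapped. As a log2 fold change F2/metestrus exceeded F1/proestrus by 0.90 (SE 0.468, 95% interval -0.10 to 1.89). The unadjusted p was 0.0750 in edgeR (adjusted p 1) and 0.0801 in the exact permutation test. Between the sexes it was 0.42 (95% interval -0.49 to 1.33, adjusted p 0.766), and 0.0289 without male 1. In every group the first library series had the higher mean, with 0.229 against 0.0891 CPM in males, 0.112 against 0.0569 CPM in F1/proestrus and 0.217 against 0.102 CPM in F2/metestrus.

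*Cysltr1*, on the minus strand of chromosome X from 106574346 to 106603679, ranged from 0.729 to 0.909 CPM in males (median 0.854), from 0.484 to 1.13 CPM in F1/proestrus (median 0.785) and from 0.507 to 0.817 CPM in F2/metestrus (median 0.680). All 6 males lay above the female median and within the female range. The log2 fold change was 0.20 between the sexes (95% interval -0.14 to 0.54, adjusted p 0.696 in edgeR). It was 0.0216 in the first library series and 0.380 in the second. For the female groups it was -0.23 (95% interval -0.70 to 0.24, adjusted p 1 in edgeR), and -0.337 to -0.0987 without 1 sample.

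**Figure D2:**
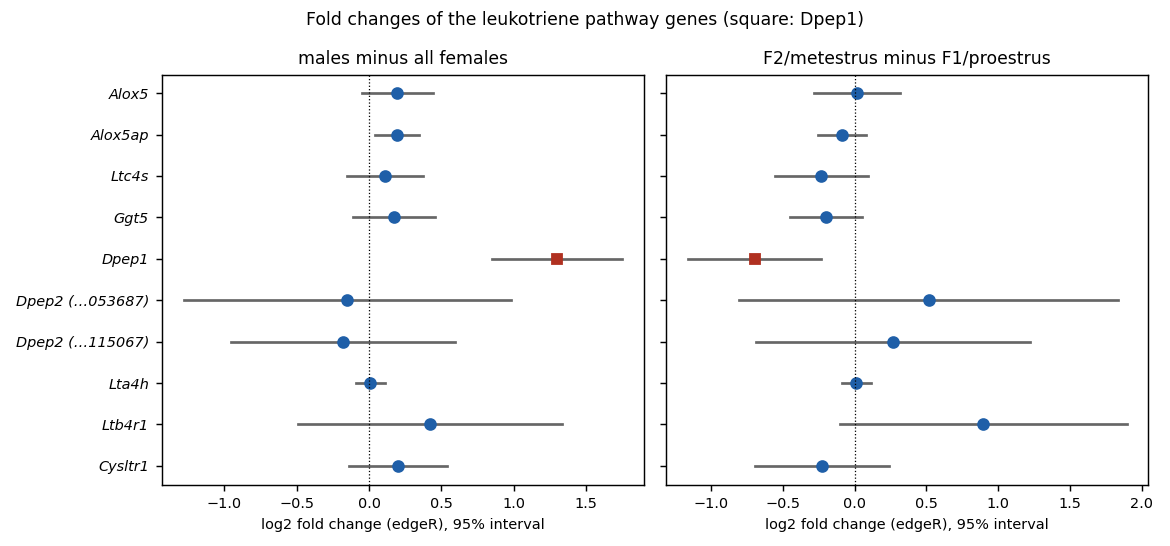
Log2 fold changes of the 10 IDs on the horizontal axis with 95% intervals from edgeR, for males minus all females (left) and F2/metestrus minus F1/proestrus (right). *Dpep1* (red square) is at 1.30 on the left and -0.70 on the right. On the left *Dpep1* was chosen by the contrast shown, so its interval is no test. Among the other 9 IDs there, the interval of *Alox5ap*, 0.04 to 0.34, does not reach 0.

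Counted together, 0 of the 9 IDs other than *Dpep1* passed an FDR of 5% in either comparison with edgeR, DESeq2 or limma voom. Between the sexes 7 of these 9 had a positive log2 fold change, with a median of 0.17 beside -0.0013 over all 24862 genes. Of the 9 IDs 1, *Alox5ap*, had an unadjusted p under 0.05, beside 2416 (9.72%) of all genes, a share close to the background. For F2/metestrus against F1/proestrus 5 of the 9 were positive, with a median of 0.01 beside -0.0004 over all genes, and 0 had an unadjusted p under 0.05. Both comparisons use the same 12 females, so their values are not independent of each other.

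Levels of different genes were compared per exon length, as RPKM. Averaged over 18 samples, *Lta4h* had 8.69 RPKM, *Alox5ap* 2.64, *Ltc4s* 1.29, *Dpep1* 0.672, *Ggt5* 0.530, *Alox5* 0.414, *Cysltr1* 0.149 and *Ltb4r1* 0.0964 RPKM, with *Dpep2* at 0.0582 and 0.0219 RPKM for its IDs. The ranges of *Lta4h*, *Alox5ap* and *Ltc4s* did not overlap from one to the next, and neither did those of *Alox5* and *Cysltr1*. Those of *Ltc4s*, *Dpep1*, *Ggt5* and *Alox5* overlapped in this order, as did those of *Cysltr1*, *Ltb4r1* and *Dpep2*. The *Dpep2* values use the full exon length, so they are too low if reads on shared bases were dropped. *Dpep1* was above *Ggt5* in 9 of 18 samples. With 1.11 RPKM in males and 0.557 RPKM in F1/proestrus it stood 4th among the 10 IDs, and with 0.344 RPKM in F2/metestrus 6th, below *Ggt5* (0.473 RPKM) and *Alox5* (0.397 RPKM).

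**Figure D3:**
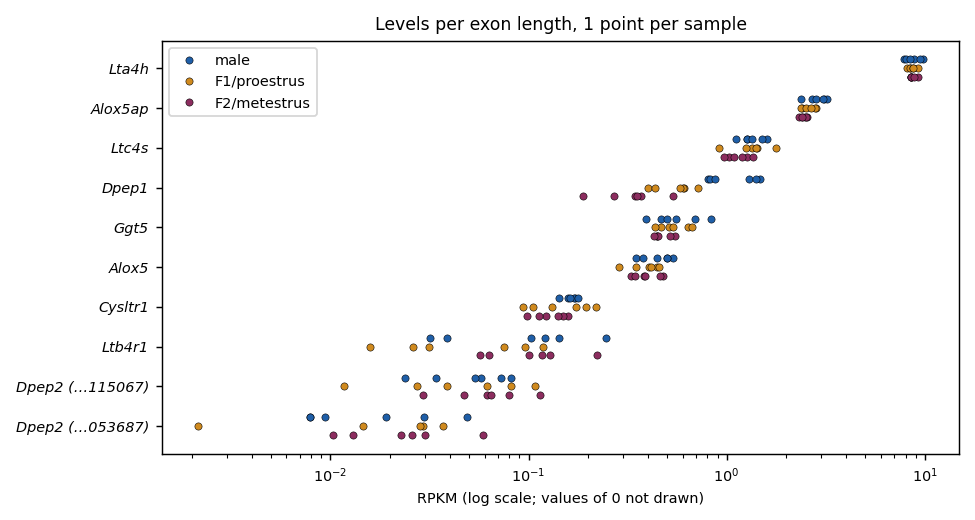
RPKM on a logarithmic horizontal axis for the 10 IDs, ordered by mean, with 1 point per sample in the color of its group. *Dpep1* spreads from 0.188 to 1.47 RPKM with the males to the right, whereas *Lta4h* stays between 7.82 and 9.82 RPKM. A value of 0 cannot be drawn on this axis.

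The pathway was followed further through 39 other genes, grouped by role, of which 34 passed the filter on low counts between the sexes and 33 between the female groups. With edgeR 0 of them passed an FDR of 5% in either comparison, and with DESeq2 2 did between the sexes, where it called 166 of all genes, and 0 between the female groups. Between the sexes 18 of 34 were positive and 16 negative, with a median log2 fold change of 0.0048. An unadjusted p under 0.05 was found for 4 of 34, close to the 9.72% of all genes. By role, 0 of 5 phospholipases that free arachidonate, 1 of 5 other lipoxygenases, 0 of 5 genes of glutathione conjugation and export, 0 of 5 other peptide-trimming enzymes, 1 of 4 other receptors, 2 of 8 genes of LTB4 breakdown and 0 of 2 partners of 5-lipoxygenase were among these 4. Between the female groups 18 of 33 were positive, and 1 had an unadjusted p under 0.05, beside 2.48% of all genes.

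The smallest p between the sexes belonged to a pair of Cyp4f genes, whose family hydroxylates the tail of LTB4 and other fatty acids. *Cyp4f14* ranged from 10.3 to 14.0 CPM in males (median 13.3) and from 9.17 to 12.2 CPM in females (median 10.4). Its log2 fold change was 0.28 (SE 0.0664, 95% interval 0.14 to 0.42), and edgeR gave an unadjusted p of 0.000402 that became 0.116 after adjustment. *Cyp4f15* ranged from 8.54 to 12.96 CPM in males (median 10.0) and from 6.44 to 9.59 CPM in females (median 7.64). Its log2 fold change was 0.37 (SE 0.0932, 95% interval 0.18 to 0.57), with an adjusted p of 0.147 in edgeR. For both genes the ranges of the sexes overlapped. DESeq2 called both, with adjusted p of 0.0186 for *Cyp4f14* and 0.0297 for *Cyp4f15*.

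*Gpr17*, an orphan receptor related to the cysteinyl leukotriene receptors and known from oligodendrocyte precursors, was the third. It ranged from 44.8 to 74.1 CPM in males (median 64.2) and from 60.2 to 82.8 CPM in females (median 76.4), with a log2 fold change of -0.24 (95% interval -0.42 to -0.05) and an adjusted p of 0.379 in edgeR. Between the female groups, *Cyp4f39*, another member of the Cyp4f family, had a log2 fold change of -3.14 (95% interval -5.33 to -0.94) and an unadjusted p of 0.00813. F1/proestrus female 5 alone carried this value, with 3.63 CPM against 0.0617 to 0.219 CPM in the other F1/proestrus females and 0.0192 to 0.219 CPM in F2/metestrus. The highest sum of sensory ganglion neuron markers in F1/proestrus was 598 CPM, against 8.09 to 60.4 CPM in all males and F2/metestrus females. Within F1/proestrus the lowest such sum was 10.9 CPM and the median 41.4 CPM. *Alox8*, a lipoxygenase, was at 15.2 ± 1.15 CPM in F1/proestrus against 16.6 ± 1.22 CPM in F2/metestrus (SD, n = 6 each), with an unadjusted p of 0.0939 in edgeR. *Pla2g4a*, the cytosolic phospholipase A2, had 12.4 ± 1.08 CPM (SD, n = 6) and 13.6 ± 0.843 CPM (SD, n = 6), with an unadjusted p of 0.103 in edgeR. All 3 had an adjusted p of 1.

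**Figure D4:**
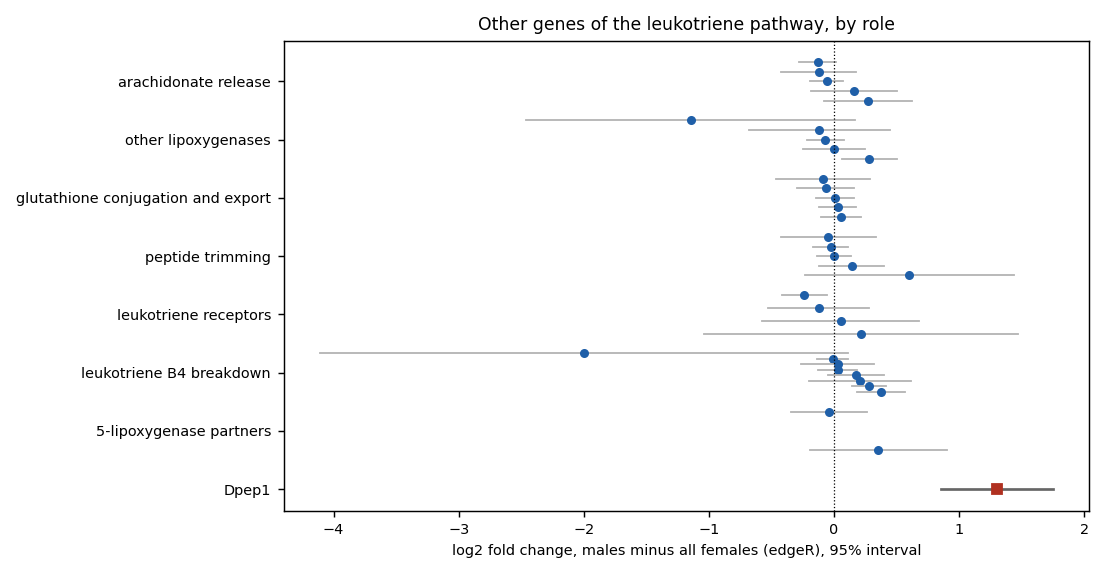
Log2 fold changes of males minus all females with 95% intervals from edgeR on the horizontal axis, for 34 other genes of the pathway in rows by role, with *Dpep1* (red square, 1.30) in the last row. Most genes lie near 0, and the widest interval, -4.11 to 0.11, is that of *Cyp4f39*.

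Within 100 kb of *Dpep1* lie 19 genes, of which 16 were tested between the sexes, and 0 of them passed an FDR of 5%. Their log2 fold changes ran from -0.02 to 0.38. An unadjusted p under 0.05 was found for 4 of 16, beside 9.72% of all genes. *Cpne7*, a copine that binds phospholipids in the presence of calcium, had a mean of 15.8 CPM in males and 12.3 CPM in females, with a log2 fold change of 0.36 (SE 0.0860) and an adjusted p of 0.119 in edgeR. DESeq2 called *Cpne7*, with an adjusted p of 0.0210. *Cdk10*, a cyclin-dependent kinase, had a log2 fold change of 0.17 (adjusted p 0.402), and *Mir7080*, whose position lies inside *Cpne7*, 0.33 (adjusted p 0.462). In F2/metestrus against F1/proestrus 0 of these genes had an unadjusted p under 0.05.

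**Figure D5:**
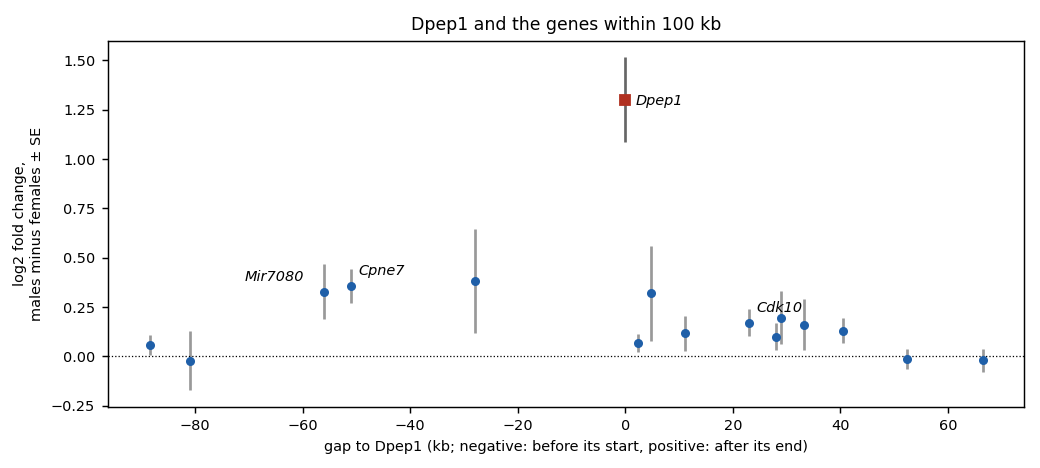
Log2 fold change of males minus females ± SE on the vertical axis against the gap to *Dpep1* in kb for tested genes within 100 kb, without *Gm20388*, which spans the whole window. *Dpep1* (red square) is at 1.30, and the others lie between -0.02 and 0.38.

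The genes most like *Dpep1* were sought among 17762 genes with a mean of at least 1 CPM, by the Pearson correlation of log2 CPM. These values are descriptions, with no test, over samples that differ in depth and library series. Over all 18 samples the highest were *Pdzph1* (0.827), *Casq1* (0.815), *Ddx3y* (0.809), *Uty* (0.805) and *Sbspon* (0.796). *Ddx3y* and *Uty* lie on the Y chromosome and are near 0 in females, so that this list largely ranks genes by the difference between the sexes. Over deviations from the 3 group means, which take that difference out, they were *Ms4a4a* (0.840), *St6galnac2* (0.765), *Zfp110* (0.750), *A330015K06Rik* (0.743) and *Selenop* (0.731). Within the pathway the same measure was 0.347 for *Ltc4s*, 0.324 for *Cysltr1*, 0.255 for *Alox5ap*, 0.141 for *Alox5*, 0.118 for *Ggt5*, -0.0134 for *Lta4h*, -0.142 and -0.0722 for the *Dpep2* IDs and -0.447 for *Ltb4r1*.

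Marker lists of the cells that the tissue could hold were summed in CPM. For their counts between the sexes, 12332 of all 24862 genes tested were positive and 0.197% were called. All 10 dorsal horn neuron markers passed the filter, with sums of 441 to 532 CPM over the 18 samples, 9 of 10 positive between the sexes and 0 called. The 8 microglia markers summed to 374 to 407 CPM in males, 335 to 381 CPM in F1/proestrus and 349 to 385 CPM in F2/metestrus, with 7 of 8 positive and 0 called between the sexes. Of 9 neutrophil markers 8 were tested, all 8 were positive and 1 was called higher in males, with sums of 5.81 to 32.4 CPM in males, 2.06 to 10.95 CPM in F1/proestrus and 5.85 to 10.98 CPM in F2/metestrus. Of 6 Schwann cell markers 6 were positive and 1 was called, with sums of 2102 to 4909 CPM in males, 1477 to 2872 CPM in F1/proestrus and 1540 to 2144 CPM in F2/metestrus. The 7 border macrophage markers summed to 25.0 to 38.5 CPM in males, 16.9 to 38.9 CPM in F1/proestrus and 19.0 to 27.3 CPM in F2/metestrus, with 6 of 7 positive and 0 called. The 9 meningeal fibroblast markers summed to 278 to 476, 230 to 499 and 261 to 442 CPM in the same order, with 6 of 9 positive and 0 called. Of the 14 lists summed, these 5 (microglia, neutrophils, Schwann cells, border macrophages and meningeal fibroblasts) had a median sum higher in males than in either female group, as had *Dpep1*, and their part in its level was not tested. Other lists ran the other way. The endothelial markers had median sums of 178 CPM in males, 195 CPM in F1/proestrus and 188 CPM in F2/metestrus, with 1 of 6 positive. For motor neurons, red blood cells and sensory ganglion neurons 0 of 5 markers each were positive. The sensory ganglion neuron sums had medians of 29.9, 41.4 and 44.5 CPM in the same order, and 1 F1/proestrus sample reached 598 CPM. Of 7 mast cell markers only 2 passed the filter on low counts, and 1 of these was positive. The median sums of this list, led by *Kit*, were 53.4 CPM in males, 58.4 CPM in F1/proestrus and 58.5 CPM in F2/metestrus. In F2/metestrus against F1/proestrus, where *Dpep1* had a negative log2 fold change, 7 of 8 microglia, 8 of 8 neutrophil, 1 of 6 Schwann cell, 2 of 7 border macrophage, 5 of 9 meningeal fibroblast, 1 of 10 dorsal horn neuron and 3 of 6 endothelial markers were positive, with 0 called. Of the lists not counted there, 0 of 5 pericyte, 0 of 5 sensory ganglion neuron, 5 of 5 astrocyte, 5 of 5 oligodendrocyte, 4 of 5 motor neuron, 3 of 5 red blood cell and 1 of 2 mast cell markers were positive, again with 0 called. By median sum the sensory ganglion neuron markers were higher in F2/metestrus (44.5 CPM) than in F1/proestrus (41.4 CPM), where 1 sample had 598 CPM. No marker of these lists was at 0 in every sample.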

How the data were processed

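RNA-Seq was performed on 18 ipsilateral DHSC samples. The authors deposited the raw count of each of 55573 Ensembl genes. Reads mapped uniquely to mm10 (Subread) had been assigned to exons with featureCounts. The submitters' processing notes name Subread 2.0.3. For the libraries, the labels give SMART-Seq amplification and Nextera XT, and the methods TruSeq. Use of strand is not given in the sources used here. Gene symbols came from a deposited table of DESeq2 results, whose own fold changes and p-values were not used.

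Low genes were removed by filterByExpr (count of at least 10, total of at least 15), libraries scaled by TMM, and the quasi-likelihood test of edgeR 4.0.16 (R 4.3.3) applied, with p-values adjusted by Benjamini-Hochberg (FDR of 5%). Males were compared with 12 females in a fit of 18 samples, and both female groups with each other in a fit of 12. The SE was derived from the log2 fold change and the F statistic. RPKM used exon lengths and positions of GENCODE vM21. The log2 CPM have a prior count of 2. The samples of a group are labelled as replicates, and no 2 columns were identical. The methods call them biological replicates and give the group sizes as numbers of animals.

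On simulated counts with a 2-fold change, edgeR recovered 165 of 197 changed genes between the sexes with 11 false calls, and 150 of 196 between the female groups with 11. DESeq2 1.42.0, limma voom 3.58.1, size factors in place of TMM, other filters, the replicate number as a block, the library series, 3 groups in 1 fit, each female group alone and leaving out each sample were alternatives. The genes and lists described were chosen with earlier results of these data known. Named were all 9 genes, genes of the pathway lists past the threshold or with the 3 smallest p in a comparison, 3 neighbors with the smallest p, and the 5 genes most like *Dpep1* by each measure.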

Additional observations from a re-analysis of the deposited data

Results flagged for a closer look

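In each group of 6, the highest and lowest samples of the 9 genes and of the other named genes of the pathway lists and the neighborhood were compared with the others by Dixon's test, over 57 groups, of which chance marks about 1 in 20. None of the 9 genes had such a sample. *Cyp4f39* reached 3.63 CPM in F1/proestrus female 5, against 0.0617 to 0.219 CPM in the other females of the group, and 0.278 CPM in male 5, against 0.0453 to 0.0962 CPM in the other males. *Gpr17* was at 60.2 CPM in F2/metestrus female 5, below the 75.3 to 82.8 CPM of the other females of the group. *Mir7080* was at 0.815 CPM in male 2, above the 0.577 to 0.638 CPM of the other males.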

How the results depend on the processing

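Between the sexes the log2 fold change of *Dpep1* ran from 0.98 to 1.68 over the 30 alternatives. This contrast chose the gene and every male lay above every female, so its sign there is no test. Between the female groups it kept its sign under all 22 alternatives, with values from -0.87 to -0.56 and unadjusted p from 0.00071 to 0.0827. Leaving out 1 sample gave 1.20 to 1.38 and -0.87 to -0.57. The number of the 10 IDs past the threshold between the sexes, 1 with all samples (*Dpep1*, which this contrast chose, so that neither its call nor its loss is a test), was 0 in the first library series alone, in the second series alone and against F1/proestrus alone, fits with fewer samples. Over all genes the 49 calls between the sexes became 166 with DESeq2, 31 with at least 10 counts in every sample, 134 with the library series as a covariate, 16 and 13 in the first and second series alone, 13 against F1/proestrus alone and 22 against F2/metestrus alone, and 25 to 77 without 1 sample (25 without male 5, 30 without male 4, 77 without F1/proestrus female 5). Between the female groups 0 became 2 with DESeq2. With the replicate number as a block, 148 genes were called between the sexes and 1 neighbor of *Dpep1* (*Cpne7*, adjusted p 0.0319). The numbers share no stated animal or day, and samples with the same number had correlated deviations over 0.1 in 9 of 18 pairs (mean 0.0854, against 0.0962 for other numbers of the same series), so the block is no pairing. Pairs from different library series had a mean of -0.0918, with 1 of 54 over 0.1. Samples were thus more alike within a series, which the main fits do not take into account. Of the other pathway genes 2 were called with DESeq2 (*Cyp4f14*, *Cyp4f15*), 1 with the library series as a covariate (*Cyp4f14*, adjusted p 0.0462) and 0 to 1 without 1 sample (*Cyp4f14* without male 1, adjusted p 0.0231). Of the neighbors 1 was called with DESeq2 (*Cpne7*) and 0 to 1 without 1 sample (*Cpne7* without F1/proestrus female 6, adjusted p 0.0337). By Spearman's rho, 0 of the 5 genes most like *Dpep1* over 18 samples and 3 of 5 over deviations stayed among the first 5. For these changes the cause was not tested.

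Signs also turned for values that were not past the threshold in any of these fits. Between the sexes, ENSMUSG00000053687 (*Dpep2*) turned to 0.0287 with limma voom and 0.279 in the first series (-0.636 to 0.0704 without 1 sample), ENSMUSG00000115067 (*Dpep2*) to 0.0223 in the first series, *Ltc4s* to -0.0816 in the first series and -0.00820 against F1/proestrus alone, and *Lta4h* to -0.0510 in the first series and -0.00827 against F2/metestrus alone (-0.0337 to 0.0294 without 1 sample). Between the female groups, *Alox5* turned to -0.0151 in the first series (-0.0597 to 0.0648 without 1 sample), and in the second series ENSMUSG00000053687 to -0.0260, ENSMUSG00000115067 to -0.0785, *Lta4h* to -0.00692 (-0.00805 to 0.0349 without 1 sample) and *Cyp4f14* to -0.00719. With few counts, *Dpep2* and *Ltb4r1* could not be tested under every filter. At 0 to 43 counts per sample their intervals are wide, and for *Dpep2* the handling of reads on shared bases is not stated.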
